A study of Mus musculus with 2 samples.

Results

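The genes described here are Lcn2, which encodes the secreted siderophore carrier lipocalin 2, and 9 genes that take up, store, export or sense iron: Tfrc, Slc11a2, Steap3, Fth1, Ftl1, Ncoa4, Slc40a1, Ireb2 and Hmox1. They were taken by symbol from a table of raw read counts, in which all 10 were found among 31017 genes. The study sequenced messenger RNA of TUBO cells, a mouse mammary carcinoma line established from a tumour of a BALB/c mouse that carried the rat neu (Her2) oncogene. The cells were untreated and grew as 2-dimensional cultures on plastic in DMEM/F12 medium with serum. There was 1 group with 2 libraries, replicate 1 and replicate 2, and therefore no comparison of conditions. The line is a single tumour-derived model, and the labels do not say whether the replicates were separate cultures, so the spread between them may be technical.

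Iron enters most cells as transferrin-bound iron through the transferrin receptor, is reduced and moved out of endosomes, and is used, stored in ferritin or exported by ferroportin. Iron regulatory proteins, encoded by Aco1 and Ireb2, bind hairpins called iron-responsive elements (IREs) in mRNAs when iron is scarce. A hairpin in the 5′ untranslated region (UTR) then blocks translation, while hairpins in the 3′ UTR protect the mRNA from decay. Lipocalin 2 binds iron-loaded siderophores, starves bacteria of iron, and is made by neutrophils and by inflamed or transformed epithelium, including mammary epithelium.

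IREs were found in 5 of the 10 genes (Slc40a1, Ftl1, Fth1, Tfrc and Slc11a2) and are shown first because they are the sequences through which these mRNAs are known to be regulated by iron. They were searched on the mRNA strand of the annotated UTRs (GENCODE M21, GRCm38, the same assembly as mm10) as a bulged C, any 5 bases, the loop CAGTGN and 5 further bases, with the 2 runs of 5 bases paired with each other (G-T pairs allowed). All 5 pairs formed in the 5′ UTRs of the export gene Slc40a1 (chr1:45925465-45925494, minus strand, exon 1) and of the ferritin genes Ftl1 (chr7:45459779-45459808, minus strand, exon 1) and Fth1 (chr19:9982731-9982760, plus strand, exon 1). In the 3′ UTR of the uptake gene Tfrc, 4 such hairpins lay in exon 19 on the plus strand, at chr16:32631218-32631247, chr16:32631597-32631626, chr16:32631662-32631691 and chr16:32631709-32631738. Slc11a2 had 1 match with 4 of 5 pairs in the 3′ UTR of at least 1 of its annotated transcripts (chr15:100395153-100395182, minus strand, exon 16). The transcripts that carry it were not counted. Each is printed 5′ to 3′ over 30 bases, with the bulged C and the 6-base loop in capitals.
Slc40a1, 5′ UTR: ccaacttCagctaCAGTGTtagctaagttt
Ftl1, 5′ UTR: tgtcttgCttcaaCAGTGTttgaacggaac
Fth1, 5′ UTR: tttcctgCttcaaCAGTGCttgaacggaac
Tfrc, 3′ UTR, the first: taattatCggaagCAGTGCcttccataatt
Tfrc, 3′ UTR, the second: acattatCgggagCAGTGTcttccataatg
Tfrc, 3′ UTR, the third: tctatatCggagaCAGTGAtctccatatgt
Tfrc, 3′ UTR, the fourth: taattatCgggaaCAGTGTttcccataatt
Slc11a2, 3′ UTR, 4 of 5 pairs: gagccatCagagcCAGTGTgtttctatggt
The ferritin and ferroportin mRNAs carried the element upstream of the coding sequence, and the Tfrc and Slc11a2 mRNAs carried it downstream. Among 21536 protein-coding genes with a complete coding sequence, a 5′ UTR match with 5 pairs was present in 28 (0.13%) and a 3′ UTR match with 5 pairs in 127 (0.59%). With 4 pairs allowed, the numbers were 173 (0.803%) and 848 (3.94%). For Lcn2, Hmox1, Ireb2, Ncoa4 and Steap3 these letters were not found in the annotated UTRs. A match is a description of the sequence, and binding was not measured.

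The libraries held 35453278 and 34098259 counts, and the 10 genes together took 0.589% of the counts in each. Levels are given as CPM, the count of a gene divided by the library total and scaled so that a whole library sums to about 1e+06, with TMM factors for composition. A gene with no reads could still have a level of up to 3 counts, which is 0.0842 CPM in the first library and 0.0885 in the second. All 10 genes reached 1 CPM in both libraries, which 37.7% of all genes in the table did, and 6 of 10 reached 100 CPM, which 7.46% of all genes did. The median log2(CPM + 1) of the 10 was 7.03 and 7.19, beside 0.12 in each library over all genes in the table. The genes were chosen with their levels known, so these shares describe them and test nothing. As markers of cell type, all 8 genes listed as mammary luminal were detected, summing to 5733 and 5583 CPM. They were led, in CPM per kilobase of exon (CPM per kb), by the keratin gene Krt18 (847 ± 10.6), the adhesion gene Epcam (409 ± 2.17) and the keratin gene Krt8 (349 ± 9.60, with SD and n = 2 here and throughout). The others were Cldn4 (185 ± 7.95 CPM per kb), Cdh1 (169 ± 6.82), Erbb2 (132 ± 2.33), Krt7 (112 ± 4.41) and the alveolar progenitor factor gene Elf5 (46.9 ± 0.465). No set of basal or myoepithelial genes was listed, so these markers do not show whether basal traits were also present. Whether reads of the rat neu oncogene were counted under Erbb2 was not tested.

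**Figure D1:**
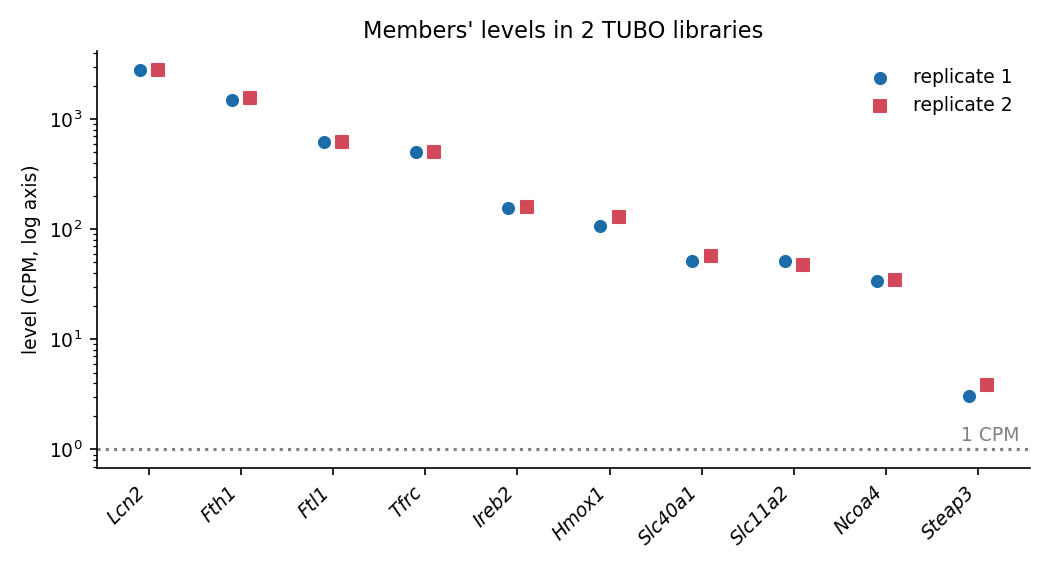
Level of each of the 10 genes in both TUBO libraries, in CPM on a log axis, with circles for replicate 1, squares for replicate 2 and a dotted line at 1 CPM. Every gene lies above the line, from 3.06 and 3.86 CPM for Steap3 to 2820 and 2786 CPM for Lcn2, and each pair of points is close beside the range between genes.

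To compare genes with each other, CPM was divided by the length of all annotated exons merged, giving CPM per kilobase (CPM per kb). On this scale the order of levels was Lcn2, Ftl1, Fth1, Tfrc, Hmox1, Ireb2, Slc11a2, Slc40a1, Ncoa4 and Steap3, and in none of the 9 neighbouring pairs did the 2 libraries overlap. The secreted carrier and both ferritin subunits therefore had the highest levels of the 10, and the transferrin receptor was the highest of the membrane proteins. Merged exons include transcript models that retain introns, and parts of the order depended on the length used: divided by the longest transcript, Fth1 (746 CPM per kb) lay above Ftl1 (646), and divided by unshared 50-base windows Ftl1 lay above Lcn2. Ncoa4 lay below Slc11a2 and Slc40a1 with 4 of the 5 lengths, but above both (22.0 against 16.9 and 16.4) when divided by the unshared windows of its spliced mRNA. Windows remove shared sequence from the length but not shared reads from the count, so they can overstate a gene. The places of Tfrc, Hmox1, Ireb2 and Steap3 in the order were the same with all 5 lengths.

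**Figure D2:**
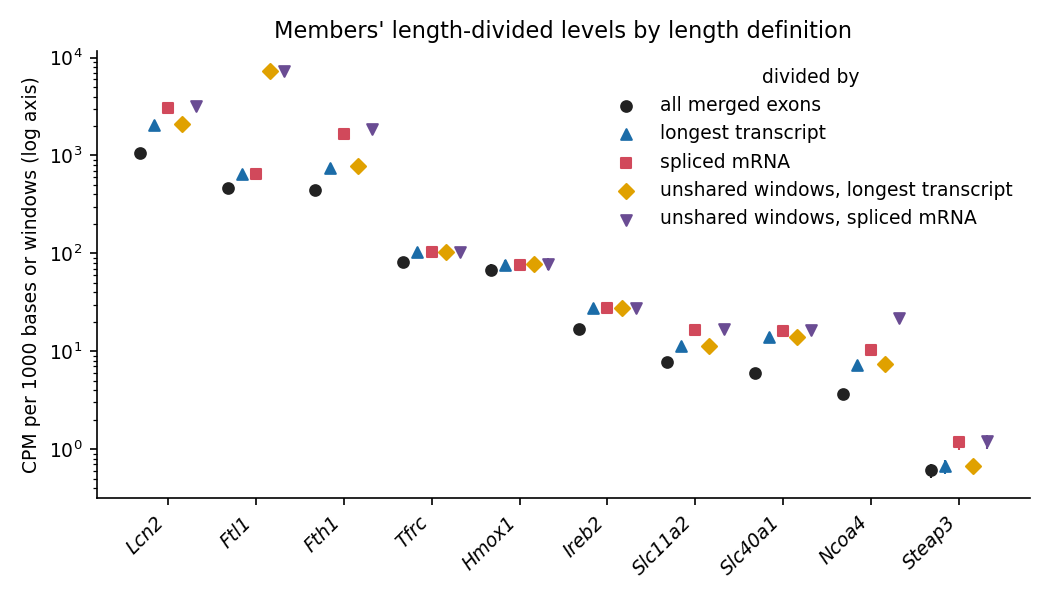
Level of the 10 genes divided by 5 measures of length, in CPM per 1000 bases or windows on a log axis: all merged exons (circles), the longest transcript (upward triangles), the spliced mRNA (squares), and the 50-base windows of the longest transcript (diamonds) or spliced mRNA (downward triangles) not shared with transcripts of other genes. Points are means and bars the SD of 2 libraries. Ftl1 rises to 7274 with unshared windows and Ncoa4 to 22.0 with those of its spliced mRNA, while Tfrc, Hmox1, Ireb2 and Steap3 keep their places.

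Lcn2 (ENSMUSG00000026822, chr2:32384633-32388252, minus strand) had 100510 counts in replicate 1 and 94479 in replicate 2, which gave 2820 and 2786 CPM. Both libraries were at nearly the same level, with a mean of 2803 ± 24.1 CPM. Per length it stood at 1069 ± 9.17 CPM per kb, rank 9 among 21721 protein-coding genes. Its nearest neighbours on that scale were Rplp1, a ribosomal stalk protein (1123 ± 11.2 CPM per kb), and Ccnb1ip1, a ubiquitin ligase of meiotic crossover (1109 ± 114 CPM per kb), above it. Below it were mt-Nd2, a mitochondrially encoded subunit of respiratory complex I (1058 ± 8.18 CPM per kb), and Actg1, cytoplasmic gamma actin (972 ± 31.7 CPM per kb). Lcn2 did not differ beyond its spread from Ccnb1ip1, whose libraries stood at 1028 and 1189 CPM per kb, nor from mt-Nd2, at 1052 and 1064. It lay below Rplp1 and above Actg1 in both libraries. These placings rest on merged exon length. Lcn2 stood at 2040 CPM per kb with the longest transcript and at 3063 with the spliced mRNA. Rplp1 has 499 bases by each of these lengths, so Lcn2 lay above it with both. The rank and the other neighbours were not recomputed with other lengths.

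Of the listed receptors and partners of lipocalin 2, 2 of 7 were detected. Slc22a17, which encodes a proposed cell surface receptor for lipocalin 2, had 124 and 144 counts, or 3.48 and 4.25 CPM. Lcn2 exceeded it 1396-fold in replicate 1 and 1130-fold in replicate 2 on the CPM per kb scale (mean 1263 ± 188). With other lengths the ratio ran from 1839 to 2431 and without length division it was 733, so the carrier was far more abundant as mRNA than this receptor on every scale tried. The other detected gene was Met, the receptor of hepatocyte growth factor (237 ± 3.41 CPM). Its ligand gene Hgf, the gelatinase gene Mmp9, whose product forms a complex with lipocalin 2, and Mc4r, a melanocortin receptor reported to bind lipocalin 2, each had 0 counts. Lrp2, the endocytic receptor megalin, had 7 and 1 counts, and Bdh2, a dehydrogenase linked to mammalian siderophore synthesis, had 1 and 0 counts.

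Lcn2 stood apart from its own protein family in level. Of 21 lipocalin genes in the table, 4 were detected and 10 had 0 counts in both libraries. After Lcn2 came Ptgds, a prostaglandin D synthase, at 52.5 ± 0.109 CPM per kb, then the plasma lipocalin genes Apom at 1.61 ± 0.117 and C8g at 1.19 ± 0.231 CPM per kb. Lcn15, Lcn16, Lcn17 and Lcnl1 matched no symbol in the table and were not analysed here.

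Genes known to induce or regulate Lcn2 were measured beside it, and 21 of 22 were detected. The highest per length were Cebpb, a bZIP factor that binds the Lcn2 promoter (208 ± 14.5 CPM per kb), Tnfrsf1a, a receptor for TNF (54.5 ± 1.16 CPM per kb), and Rela, the NF-kB subunit p65 (42.6 ± 1.37 CPM per kb). The exception was Il1r1, the interleukin 1 receptor, with 3 counts in each library, which is at the detection floor. Of 21 acute-phase and epithelial defence genes in the table, 13 were detected, and Lcn2 was followed by Csf3, the granulocyte growth factor G-CSF (132 ± 1.84 CPM per kb), and Wfdc2, an epithelial whey acidic protein (60.2 ± 3.71 CPM per kb). The acute-phase gene Saa1 had 0 counts, so the defence genes were not all present beside Lcn2.

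Neutrophils are a classical source of lipocalin 2, and 2 of 14 neutrophil markers were detected while 7 had 0 counts in both libraries. The detected markers were Ltf, the iron-binding milk and granule protein lactoferrin (104 ± 1.70 CPM), and Cd177, a surface glycoprotein (62.5 ± 0.972 CPM). The 14 marker genes summed to 169 and 165 CPM, nearly all from these 2 genes. The granule and surface genes Elane, Ly6g, Mmp8, Ctsg, Csf3r, Retnlg and S100a9 were at 0 counts, S100a8 had 17 and 12 counts, and Mpo had 3 and 1. Macrophage markers summed to 31.1 and 31.0 CPM, with 2 of 12 detected (Cd68 at 9.43 ± 0.116 CPM and the haemoglobin scavenger receptor gene Cd163 at 20.9 ± 0.167 CPM) and Ptprc, Adgre1 and Lyz2 at 0 counts. Csf1r, the receptor of macrophage growth factor, had 18 and 15 counts. None of 10 erythroid markers was detected, and their sum was 1.91 and 2.01 CPM with the globin genes at 0. The highest per length were the erythroid factor gene Klf1 (0.367 ± 0.0262 CPM per kb), Alas2, an erythroid enzyme of heme synthesis (0.341 ± 0.00353), and the erythropoietin receptor gene Epor (0.282 ± 0.0201). Of 8 fibroblast markers 1 was detected, the growth factor receptor gene Pdgfra (7.64 ± 1.08 CPM), and the 8 summed to 7.91 and 8.93 CPM. The collagen gene Col1a1 had 37 and 18 counts, and Col1a2, Col3a1, Pdgfrb, Dcn, Lum and Thy1 had 0.

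**Figure D3:**
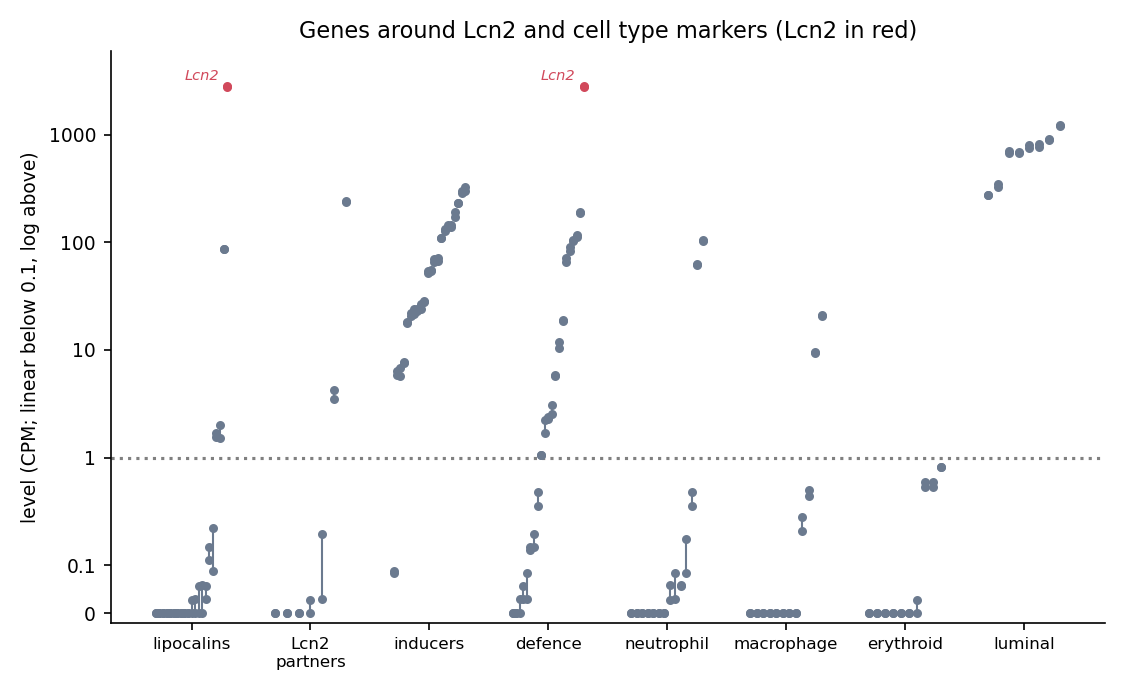
Levels of lipocalins, Lcn2 partners, inducers, defence genes and cell type markers, in CPM (log axis above 0.1, linear below). Each pair of joined points is 1 gene in both libraries, genes are sorted within a list and Lcn2 is red. Lcn2, at 2820 and 2786 CPM, lies above every other gene plotted, and most lipocalin, neutrophil, macrophage and erythroid genes lie at or near 0.

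Among uptake genes, Tfrc (ENSMUSG00000022797, chr16:32608920-32632794, plus strand), the transferrin receptor that carries the 4 hairpins shown above, had 17832 and 16984 counts. Its level was 500.3 CPM in replicate 1 and 500.8 CPM in replicate 2, or 80.9 ± 0.0581 CPM per kb. The libraries agreed within sampling noise. Tfr2, the second transferrin receptor and a hepatic iron sensor, had 0 counts in both. Against a floor of 3 counts per library, Tfrc was at least 4167-fold higher in replicate 1 and at least 3969-fold higher in replicate 2 on the CPM per kb scale. The receptor's ligand gene Trf, transferrin, was itself expressed at 54.9 ± 3.82 CPM per kb, and lactoferrin (Ltf) at 30.1 ± 0.492 CPM per kb. Tfrc, Trf and Ltf were the 3 highest of 21 uptake and reduction genes in the table, of which 13 were detected.

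Slc11a2 (ENSMUSG00000023030, chr15:100387898-100425072, minus strand) encodes DMT1, the proton-coupled transporter that moves ferrous iron out of endosomes. It had 1820 and 1619 counts, or 51.1 and 47.7 CPM, and 7.77 ± 0.370 CPM per kb. Replicate 1 was the higher library. The gene makes transcripts with and without the hairpin, and counts per gene do not separate them. Short stretches of its spliced mRNA (2.02% of its 50-base windows) also occur in transcripts of other genes, 515 genes in all.

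Steap3 (ENSMUSG00000026389, chr1:120190757-120272705, minus strand), the endosomal ferrireductase that prepares iron for DMT1 in erythroid cells, was the lowest of the 10 genes, with 109 and 131 counts. These counts gave 3.06 and 3.86 CPM, or 0.605 ± 0.0996 CPM per kb. The related reductase genes were lower still. Steap1 and Steap4 had 0 counts in both libraries and Steap2 had 10 and 14. Steap3 was at least 8.75-fold and 10.5-fold higher than Steap1 in the 2 libraries on the CPM per kb scale, again against 3 counts per library. The mean bound, 9.64, depended on the length and was 16.8 with the spliced mRNA and 40.0 without length division. The plasma membrane reductase gene Cybrd1 had 0 counts in replicate 1 and 7 in replicate 2.

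Storage rests on ferritin, a shell of heavy (Fth1) and light (Ftl1) chains in which the heavy chain oxidises iron and the light chain favours core formation. Fth1 (ENSMUSG00000024661, chr19:9980598-9985098, plus strand) had 53581 and 53399 counts, or 1503 and 1574 CPM, with replicate 2 higher, and 443.6 ± 14.5 CPM per kb. Ftl1 (ENSMUSG00000050708, chr7:45457944-45459884, minus strand) had 22308 and 21207 counts, which gave 625.8 and 625.3 CPM with the libraries level, and 466.8 ± 0.289 CPM per kb. In the sequences above, the hairpins of both chains were identical at 27 of 30 bases.

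The ratio of Fth1 to Ftl1 was 0.928 in replicate 1 and 0.973 in replicate 2 on the CPM per kb scale, with a mean of 0.950 ± 0.0317. Its direction was set by the length: with spliced mRNA length (929 and 968 bases) it was 2.56, and with unshared windows 0.108. Ftl1 is the member whose counts are least certain, since 90.6% of the 50-base windows of its mRNA also occur in transcripts of other genes, 17 genes in all. Only 2 of these were in the table: Ftl1-ps1, a processed pseudogene, held 49 and 46 counts and Gm47428 held 0. For the rest no counts can be given. How the authors treated reads with several matches is not given in the sources used here, so the order of the ferritin chains is not settled by these counts. For Fth1 the shared part was 6.59% of windows, all with Gm6977, which was not in the table.

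Ncoa4 (ENSMUSG00000056234, chr14:32159865-32179855, plus strand) encodes the receptor that carries ferritin to the lysosome for ferritinophagy. It had 1218 and 1180 counts, or 34.2 and 34.8 CPM, and 3.68 ± 0.0470 CPM per kb, so the libraries were alike. The ratio of Ncoa4, the receptor, to Fth1, its cargo, was 0.00830 ± 0.000166 on the CPM per kb scale, and 0.0224 without length division. Of its mRNA windows, 52.5% are shared with transcripts of Gm6768, which was not in the table. Of 16 storage, chaperone and turnover genes, 15 were detected. The highest after the ferritin chains was Pcbp1, an iron chaperone that delivers iron to ferritin (178 ± 10.6 CPM per kb). The mitochondrial ferritin gene Ftmt had 0 counts.

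Slc40a1 (ENSMUSG00000025993, chr1:45908068-45926523, minus strand) encodes ferroportin, the cellular iron exporter. It had 1854 and 1940 counts, or 52.0 and 57.2 CPM, and 6.07 ± 0.408 CPM per kb. Tfrc was 14.0-fold higher than Slc40a1 in replicate 1 and 12.7-fold higher in replicate 2 on the CPM per kb scale (mean 13.4 ± 0.888). With other lengths this ratio was lower, at 7.38 with the longest transcript and 6.33 with the spliced mRNA. Slc11a2 and Slc40a1 were close, with a ratio of 1.29 ± 0.147 in CPM per kb. That order did not hold with other lengths: the ratio was 0.808 with the longest transcript, 0.807 with unshared windows and 1.01 with the spliced mRNA.

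Of 10 export genes, 6 were detected. The highest were App, the amyloid precursor, which has been linked to ferroportin at the membrane (114 ± 4.07 CPM per kb), Flvcr2, a heme-linked transporter (25.2 ± 0.205 CPM per kb), and Cp, the ferroxidase ceruloplasmin (12.0 ± 0.445 CPM per kb). The other ferroxidase genes, Heph and Hephl1, had 0 counts. Hamp, which encodes the ferroportin-blocking hormone hepcidin, had 3 and 1 counts, at or under the floor, and Hamp2 had 0.

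Ireb2 (ENSMUSG00000032293, chr9:54863789-54912530, plus strand) encodes IRP2, the iron regulatory protein that is degraded when iron is plentiful. It had 5571 and 5468 counts, or 156 and 161 CPM, and 16.7 ± 0.368 CPM per kb. Aco1, which encodes IRP1, a protein that is either a cytosolic aconitase or an RNA-binding regulator, was higher at 43.5 ± 0.958 CPM per kb. The ratio of Ireb2 to Aco1 was 0.373 and 0.397 in the 2 libraries (mean 0.385 ± 0.0170), and it was below 1 with each length tried, at most 0.813 in CPM not divided by length. Of 19 sensing and regulation genes in the table, 16 were detected. The 3 highest were Skp1a (141 ± 7.80 CPM per kb) and Cul1 (44.7 ± 1.81 CPM per kb), core subunits of SCF ubiquitin ligases such as the one that removes IRP2, and Aco1. Of the genes of the hepcidin pathway on this list, Neo1, a co-receptor (22.9 ± 0.0544 CPM per kb), the signal transducer Smad4 (24.6 ± 0.935) and the receptor gene Bmpr1a (14.6 ± 0.0932) were detected. So were the receptor gene Acvr1 (5.76 ± 0.0427 CPM per kb) and Erfe (5.15 ± 0.397). The ligand genes Bmp6 (25 and 25 counts) and Bmp2 (0) and the protease gene Tmprss6 (0 and 4) were not detected, and Hfe was just above 1 CPM with 60 and 61 counts. Hjv matched no symbol in the table.

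Hmox1 (ENSMUSG00000005413, chr8:75093621-75100589, plus strand) encodes heme oxygenase 1, the stress-inducible enzyme that releases iron from heme. It had 3841 and 4427 counts, or 108 and 131 CPM, with replicate 2 higher, and 68.0 ± 9.20 CPM per kb. It exceeded Hmox2, the constitutive isoenzyme (12.9 ± 0.244 CPM per kb), 4.71-fold in replicate 1 and 5.86-fold in replicate 2 on the CPM per kb scale. With unshared windows the ratio was 2.42, since 47.7% of the mRNA windows of Hmox2 occur in transcripts of other genes. Of 24 genes of heme synthesis, transport and breakdown, 23 were detected, with Hmox1 first, followed by Tmem14c, a porphyrin transporter of mitochondria (50.7 ± 0.916 CPM per kb), and Pgrmc1, a heme-binding membrane protein (40.8 ± 1.59 CPM per kb). The erythroid synthase gene Alas2 had 29 and 28 counts and was under 1 CPM, while its housekeeping counterpart Alas1 stood at 44.7 ± 0.949 CPM.

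**Figure D4:**
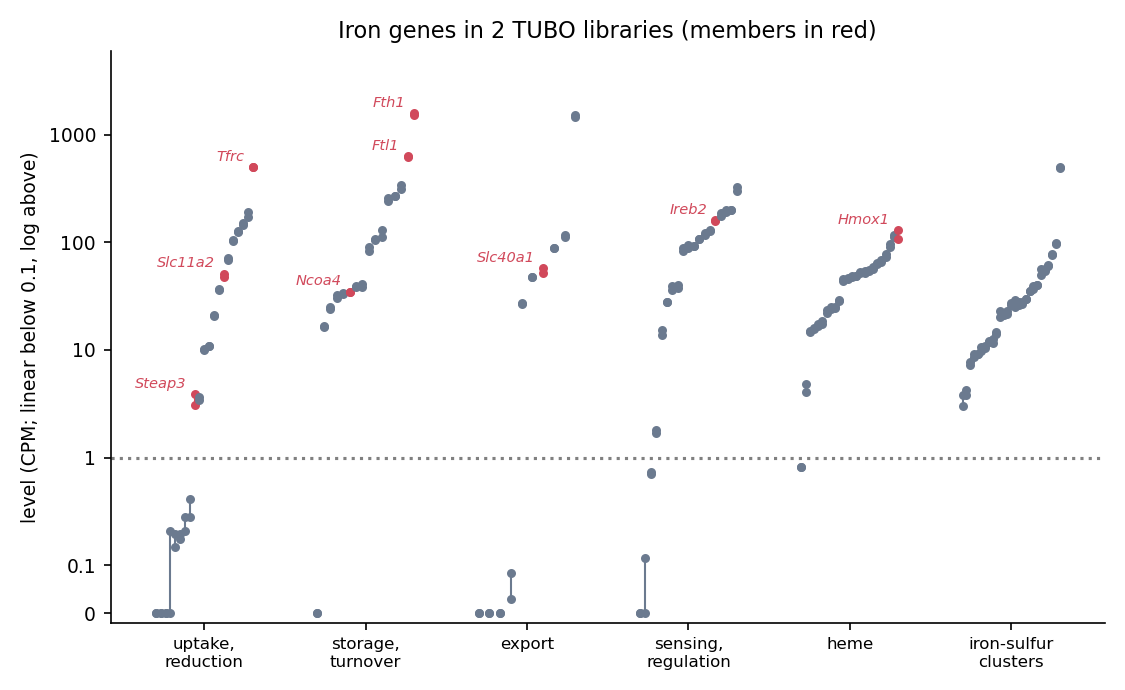
Levels of the genes on 6 lists of iron handling, in CPM (log axis above 0.1, linear below), sorted within a list. Each pair of joined points is 1 gene in both libraries, the genes described here are red and the dotted line marks 1 CPM. Tfrc and Fth1 are the highest of their lists in CPM, Hmox1 has the highest mean of the heme list, and Steap3 (3.06 and 3.86 CPM) is the lowest red gene.

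All 27 iron-sulfur cluster assembly genes were detected, led by Hspa9, the mitochondrial chaperone mortalin (114 ± 1.14 CPM per kb), Cisd1, an outer mitochondrial membrane cluster protein (20.4 ± 1.02 CPM per kb), and Ciao1, of the cytosolic targeting complex (17.4 ± 0.498 CPM per kb). Of 20 genes of iron-dependent lipid peroxidation, 16 were detected. The highest were Gpx4, the lipid peroxidase that restrains ferroptosis (298 ± 2.37 CPM per kb), Acsl4, which loads polyunsaturated fatty acids (126 ± 1.84 CPM per kb), and Slc3a2, a subunit of the cystine importer (88.5 ± 2.88 CPM per kb). The partner subunit gene Slc7a11 stood at 3.46 ± 0.0298 CPM per kb, and the quinone reductase gene Nqo1 had 43 and 37 counts.

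The design holds no contrast, so differences could be taken only between the 2 libraries. With 1 library against 1, a sign test over libraries cannot give a p below 0.5, and the exact two-sided binomial test used here covers counting error only: it compares these libraries, not conditions. It was run on 13336 genes with Benjamini-Hochberg adjustment and called 8.13% of them at an adjusted p under 0.05, 489 (3.67%) higher and 595 (4.46%) lower in replicate 2. Of the 10 genes, 3 were called, all higher in replicate 2. With library totals in place of TMM factors the split over all genes was 374 higher and 921 lower.

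Hmox1 had the largest difference of these 3, 1.21-fold (95% interval 1.16 to 1.27, exact binomial test, adjusted p = 9.44e-16). Fth1 was 1.05-fold higher in replicate 2 (1.03 to 1.06, adjusted p = 6.80e-12), a small difference that rests on the largest counts of these 3 genes. Slc40a1 was 1.10-fold higher (1.03 to 1.17, adjusted p = 0.0447), and this call was lost with library totals (adjusted p = 0.0823), with DESeq2 size factors (0.0565) and with no filter on low counts (0.0601). Lcn2 was not called (0.988-fold, 0.979 to 0.997, adjusted p = 0.0745), but it was called lower in replicate 2 with library totals (adjusted p = 2.08e-05) and with DESeq2 size factors (0.00794).

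The other 6 genes did not pass. Steap3 had the largest ratio of the 10, 1.26-fold, with an interval of 0.972 to 1.64 that reflects its low counts. Slc11a2 was at 0.935-fold (0.874 to 1.00), Ireb2 at 1.03-fold (0.994 to 1.07) and Ncoa4 at 1.02-fold (0.939 to 1.10). Tfrc was at 1.00-fold (0.980 to 1.02) and Ftl1 at 0.999-fold (0.980 to 1.02). The median log2 ratio of the 10 was 0.04, beside -0.00 over all genes tested. When a common dispersion of the 2 libraries was estimated and edgeR's exact test was used, 0.142% of genes were called, 19 higher and 0 lower in replicate 2, and none of the 10. That dispersion came from the same 2 libraries taken as replicates. The test therefore asked only which genes differed more than is typical between these libraries, and few calls follow from that setting. Hmox1 had the lowest p of the 10 by edgeR's exact test (adjusted p = 0.0612).

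The other genes on the lists that the binomial test called follow. Since edgeR's exact test called no gene lower, each lower call on these lists is lost with it. The higher calls among the 10 genes are lost too, and for the other higher calls below the result of that test is not given. Trf was lower in replicate 2 (191 and 173 CPM), and it was the only one of 13 tested uptake genes. In storage and turnover, Herc2, a ubiquitin ligase (111 and 130 CPM), was higher with Fth1, and the iron chaperone genes Pcbp1 (339 and 312 CPM) and Pcbp2 (259 and 240 CPM) were lower, of 15 tested. Of 6 tested export genes, App (1519 and 1444 CPM) was lower and Slc40a1 higher. Of 17 tested sensing genes, Skp1a (299.7 and 324 CPM) was higher and Cul1 (186 and 175 CPM) lower. Hmox1 was the only one of 24 tested heme genes, and in cluster assembly Gfer (28.9 and 25.1 CPM) and Ciapin1 (56.1 and 50.04 CPM) were lower, of 27 tested. Slc3a2 (320 and 305 CPM) was lower among 18 tested lipid peroxidation genes. Among inducers of Lcn2, Cebpb (328 and 298 CPM) and Klf5 (190 and 170 CPM) were lower, of 21 tested. Among defence genes, Wfdc2 (65.7 and 71.6 CPM) was higher and Lbp, the lipopolysaccharide-binding protein (90.03 and 83.5 CPM), lower, of 14 tested. Of 8 luminal markers, 4 were lower (Cdh1, Krt7, Krt8 and Cldn4). Whether these shifts bear on those of the 10 genes was not tested.

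**Figure D5:**
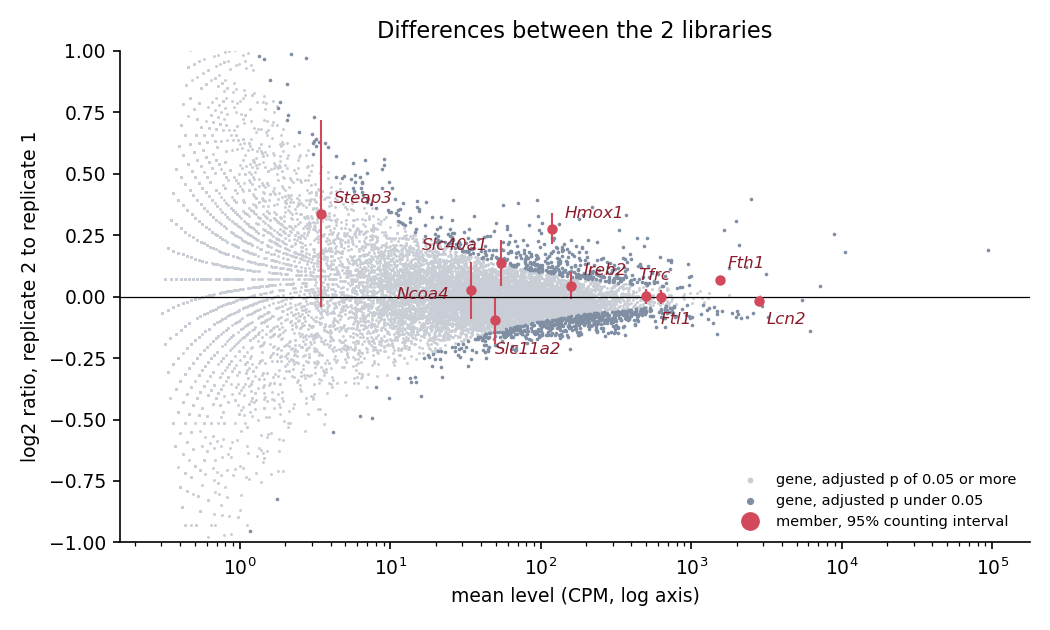
Log2 ratio of replicate 2 to replicate 1 against the mean level in CPM (log axis) for 13336 tested genes, with those at an adjusted p under 0.05 in dark grey and the 10 genes in red with 95% counting intervals. The vertical axis ends at 1 in each direction and leaves out 54 genes. Hmox1, Slc40a1 and Fth1 lie above 0 with intervals that do not reach it, and Tfrc and Ftl1 lie at 0. Lcn2 lies just below 0 with an interval (-0.0303 to -0.0047) that does not reach it either, but it was not called after adjustment.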

How the data were processed

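Per the labels' protocols, RNA of TUBO cells was column-purified, treated with DNase and made into stranded mRNA libraries. The authors deposited raw counts per gene symbol for 31017 genes in 2 libraries, with totals of 35453278 and 34098259 counts. The build mm10 and the tools STAR 2.7.9a, FastQC 0.11.9, Cell Ranger 3.0.0, R 4.1.1 and featureCounts are listed, without roles, per the submitters' processing notes. Not given in the sources used here are the annotation release, the strand setting and how multi-match reads were treated, so overlapping, antisense and similar genes are uncertain.

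CPM was computed from the counts in edgeR 4.0.16 (R 4.3.3) with TMM factors of 1.01 and 0.995 and divided by merged exon length from GENCODE M21, in which 98.1% of the symbols had a single match. Genes kept by filterByExpr were compared between libraries with an exact binomial test, with Benjamini-Hochberg adjustment and a threshold of 0.05. The binomial test was tried on simulated data with counting noise alone. That is what it assumes, so the trial cannot show how it treats wider spread between libraries. Alternatives were library totals, upper-quartile factors, DESeq2 1.42.0 size factors, no filter and edgeR's exact test with a common dispersion. Library totals with TMM factors were also recomputed without the 2 most abundant genes Gm26917 and Gm42418. Other detection minimums, other lengths and leaving out each library were tried too. Spliced mRNA length (the principal transcript) and its unshared windows were chosen after seeing the data. Shared 50-base windows were sought in transcripts only; genomic sequence outside them was not searched. Intervals and floors cover counting error only, since reads carry no molecular identifiers.

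The members and the 17 gene lists were chosen with earlier results of these data known. Named genes were the members, the 3 highest of each list in CPM per kb, all genes of lists of up to 8, the partners in ratios, the 2 genes on either side of Lcn2 and genes sharing windows. For Slc11a2 these were too many to name. Other genes were named after their values were seen, because they are defining markers, were called, or stood at 0.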

Additional observations from a re-analysis of the deposited data

How the results depend on the processing

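All 10 genes stayed at 1 CPM or more with each scaling and in each library alone, and 9 of 10 reached 5 CPM. The ratios rest on the length used and were recomputed with the longest transcript, without length division, with unshared windows of the longest transcript, with spliced mRNA length and with its unshared windows, in that order; the last 2 were chosen after seeing the data. Fth1 to Ftl1 was 1.15, 2.46, 0.108, 2.56 and 0.257. Slc11a2 to Slc40a1 was 0.808, 0.908, 0.807, 1.01 and 1.03. Lcn2 to Slc22a17 was 2395, 733, 2431, 1839 and 1901, and the lower bound of Tfrc to Tfr2 was 3645, 5803, 3624, 3472 and 3449. Tfrc to Slc40a1 was 7.38, 9.19, 7.36, 6.33 and 6.30, Ireb2 to Aco1 was 0.540, 0.813, 0.537, 0.540 and 0.537, and Ncoa4 to Fth1 was 0.00977, 0.0224, 0.00936, 0.00623 and 0.0118. Hmox1 to Hmox2 moved to 4.18 without length division and 2.42 with either set of unshared windows, and the bound of Steap3 to Steap1 to 40.0 without length division, 16.8 with spliced mRNA length and 16.4 with its unshared windows. The order of the genes changed with the longest transcript and its unshared windows, each with 9 separated neighbouring pairs, and with spliced mRNA length and its unshared windows, each with 8.

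In single libraries the ratios ranged from 1130 to 1396 for Lcn2 to Slc22a17, 0.928 to 0.973 for Fth1 to Ftl1, 3969 to 4167 for the bound of Tfrc to Tfr2, 12.7 to 14.0 for Tfrc to Slc40a1, 1.18 to 1.39 for Slc11a2 to Slc40a1, 0.373 to 0.397 for Ireb2 to Aco1, 4.71 to 5.86 for Hmox1 to Hmox2, 8.75 to 10.5 for the bound of Steap3 to Steap1 and 0.00819 to 0.00842 for Ncoa4 to Fth1. Between libraries, edgeR's exact test called 0 of the 10 genes and 19 of all genes, beside 1084 by the binomial test. The log2 ratio of Tfrc turned to -0.014 with library totals and -0.0042 with DESeq2 size factors, and that of Ftl1 to 0.0026 with upper-quartile factors, all with adjusted p over the threshold. In CPM, all 30 values under the 3 other scalings stayed within 1 SD. Without Gm26917 and Gm42418 all 10 genes rose, such as Lcn2 from 2803 to 3131 CPM, and 8 of 10 moved by more than 1 SD. Hmox1 (119 to 133 CPM) and Steap3 (3.46 to 3.87 CPM) rose too, but within their wider SD. The bounds against Tfr2 and Steap1 rest on 0 counts of those genes. No paired analysis was possible because there is a single group.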
